A study of Capra hircus with 12 samples.

Results

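The BCL2 family was followed in cultured goat cells of the temporomandibular joint (TMJ). Its members were 10 genes matched by name in the count tables, of 28910 genes listed, and all 10 had enough counts to be tested. They fall into 3 classes. The pro-survival genes were BCL2, BCL2L1 (which encodes BCL-XL) and MCL1. The effector genes were BAX and BAK1. The BH3-only genes were BAD, BID, BCL2L11 (BIM), BBC3 (PUMA) and PMAIP1 (NOXA). Proteins of this family decide whether the outer membrane of the mitochondrion stays intact. Pro-survival members hold the effectors BAX and BAK in check, BH3-only members neutralise the pro-survival proteins or activate the effectors directly, and active BAX and BAK open pores through which cytochrome c leaves and switches on caspases. Loss of chondrocytes by this route is a known feature of osteoarthritic cartilage. Much of the control lies beyond the messenger RNA measured here, since BID is activated by cleavage, BAD is silenced by phosphorylation and the MCL1 protein is degraded rapidly.

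RNA was sequenced in 12 libraries of cells from the superficial layer (SLC) and the middle layer (MLC) of the joint cartilage. In each layer, 3 libraries carry the label IL-1β and 3 the label IL-1β + LOXL2 (called LOXL2-labelled below), so every group received the inflammatory cytokine IL-1β and no untreated cells were analysed here. Per the study's methods, the cells came from female goats of 6 to 9 months, were used at passages 3 to 5 and received IL-1β (10 ng) for 1 h, and LOXL2, an enzyme that cross-links collagen and elastin, was delivered the night before by an adenovirus. The methods name an empty adenovirus as control for goat cells in the annexin V assay but not for the culture sequenced here, so whether the cells given IL-1β alone received it is not known, and without it LOXL2 and the transduction itself cannot be told apart. Nothing in the labels says that replicates came from separate animals or cultures, and the p-values then measure only the spread between these libraries, which may be technical.

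The libraries held between 14158607 and 28931652 counts. On the goat LOXL2 gene, counts were no higher in the LOXL2-labelled libraries (log2 fold change -0.27, adjusted p = 0.106 in SLC, and -0.066, adjusted p = 0.595 in MLC, edgeR's quasi-likelihood test). All directions given for LOXL2 therefore rest on the labels. Of 10 chondrocyte markers, COL2A1 and COL9A1, which encode cartilage collagens, were at 0 in the SLC IL-1β libraries. In the LOXL2-labelled SLC libraries both were below 1 normalized count. However, 7 of the 10 had at least 10 counts in every SLC library of either label. Among these, with IL-1β, were the collagen gene COL11A1 (21931 to 24340 normalized counts), ACAN (849 to 944) and SOX9 (372 to 415). In MLC, COL2A1 ranged from 194 to 388 normalized counts. The first LOXL2-labelled SLC replicate stood apart from the others of its group (chi-square per degree of freedom of 169 and 61.9 for the pairs that held it, and 30.98 for the other pair). The first LOXL2-labelled MLC replicate did so by less (16.1 and 36.0, and 6.10 for the other pair). Of the 3 replicates they lay nearest to the IL-1β mean for 9 and 8 of the 10 members. Counts of members called are given with and without them, and results for the other gene lists only with them.

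Levels below are normalized counts, which are counts scaled for library depth by DESeq2's median of ratios over all 12 libraries. They are not divided by transcript length and were compared only within a gene. Fold changes are from edgeR fits of all tested genes, with p-values adjusted over all of them by the Benjamini-Hochberg method and a threshold of 0.05. In a bulk culture, fewer cells of a type and less RNA per cell cannot be told apart.

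In MLC, BCL2 fell in the LOXL2-labelled libraries, to 0.53 times its IL-1β level, and the effector BAX and the BH3-only genes BAD and BID rose to 1.301 to 1.518 times. The other 6 members did not pass the test there, where 21.6% of all genes did. In SLC no member and no other gene passed, with point estimates of -1.455 for BCL2, 0.78 for BAX, 0.92 for BAD and 0.63 for BID on the log2 scale. In both layers 7 of the 10 point estimates were positive and 3 negative (50.7% of all genes were positive in SLC and 50.9% in MLC), and BCL2 and MCL1 were negative in each. The plot of members by library shows these values in the 4 groups.

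**Figure D1:**
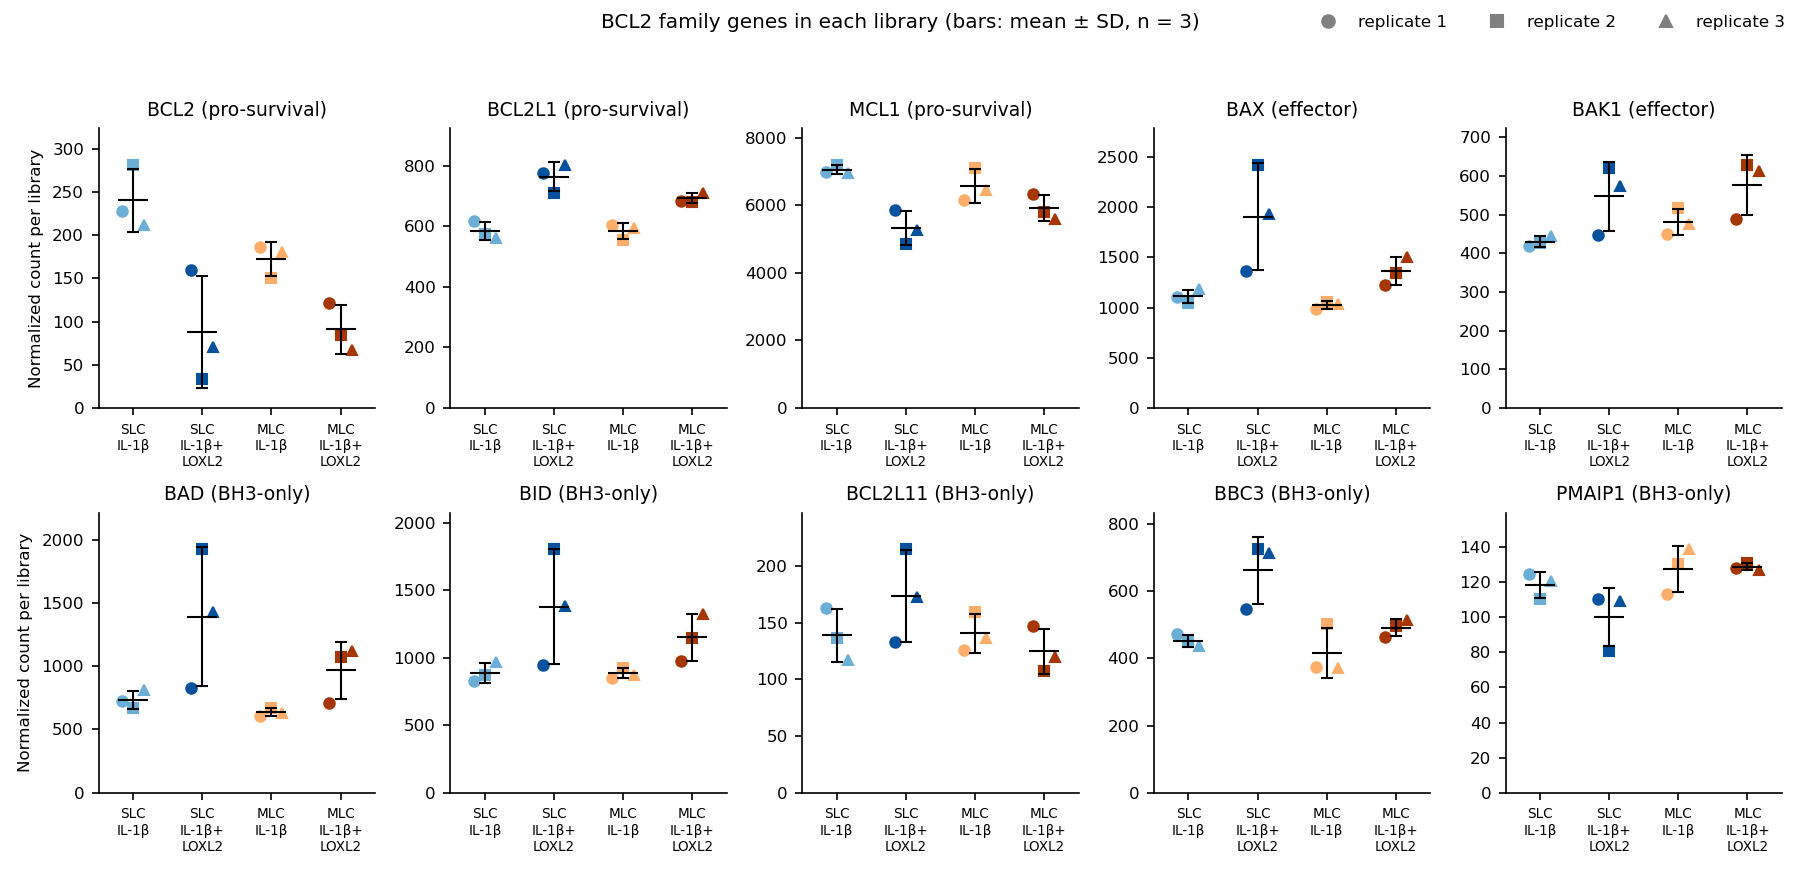
Normalized count of each of the 10 genes (vertical axis, from 0) in the 12 libraries, with the 4 groups on the horizontal axis, marker shapes for replicates 1 to 3 and bars for mean ± SD (n = 3). BCL2 in the LOXL2-labelled libraries lies below the IL-1β libraries in both layers, and BCL2L1, BAX and BAD lie above them. Of all genes, 23.7% lay above and 25.3% below in this way in SLC, and 21.2% and 20.2% in MLC.

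BCL2, the founding pro-survival gene (gene 100861254, protein-coding, chromosome 24, 61577610 to 61770906 in ARS1.2), had 228, 282 and 212 normalized counts in SLC replicates 1, 2 and 3 with IL-1β. It had 159.9, 33.0 and 71.0 in the LOXL2-labelled ones. All 3 of the latter were below all 3 of the former, and the first replicate was the highest of its group. The mean went from 240.4 ± 36.9 to 88.0 ± 65.1 (SD, n = 3). Its log2 fold change of -1.455 (SE 0.49, 95% interval -2.60 to -0.31) did not pass the threshold (adjusted p = 0.0776). Without the first LOXL2-labelled replicate, the nearest of its group to the IL-1β mean, it was -2.24. It then passed (adjusted p = 5.29e-05), as did 61.7% of all genes. Without the second it was -1.05 (adjusted p = 0.116), and leaving out any other SLC library gave no call either. In MLC, BCL2 had 187, 150 and 181 normalized counts with IL-1β and 122, 84.8 and 66.6 with the LOXL2 label. The groups again did not overlap, and the fall was past the threshold (log2 fold change -0.92, SE 0.21, adjusted p = 0.0206). A long noncoding RNA, LOC108633783, is annotated within the span of BCL2 and had at most 8 counts in a library.

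BCL2L1 (gene 102180684, chromosome 13, 60528848 to 60582326) encodes BCL-XL, a pro-survival protein of the outer mitochondrial membrane. Its normalized counts in SLC were 618, 576 and 560.2 with IL-1β and 775, 711 and 803 in the LOXL2-labelled libraries. In MLC they were 605, 555 and 594, and 683, 681 and 710.3. In both layers every library with the LOXL2 label was above every IL-1β library, opposite to BCL2, but neither difference passed the threshold. The log2 fold change was 0.39 in SLC (SE 0.10, 95% interval 0.14 to 0.63, adjusted p = 0.0706) and 0.24 in MLC (SE 0.097, 95% interval 0.032 to 0.45, adjusted p = 0.0850).

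MCL1 (gene 102185798, chromosome 3, 100037524 to 100042316) encodes a short-lived pro-survival protein whose messenger is itself turned over quickly. In SLC it had 6994, 7204 and 6952 normalized counts with IL-1β and 5870, 4843 and 5262 in the LOXL2-labelled libraries. These did not overlap, and the means were 7050 ± 135 and 5325 ± 516 (SD, n = 3). The log2 fold change of -0.40 (SE 0.11, 95% interval -0.66 to -0.14) did not pass the threshold (adjusted p = 0.0706). In MLC, MCL1 had 6148, 7115 and 6453 against 6346, 5793 and 5596 normalized counts. Here the groups overlapped, with a log2 fold change of -0.15 (SE 0.090, 95% interval -0.35 to 0.041, adjusted p = 0.221).

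BAX, one of the pore-forming effectors (gene 100846984, chromosome 18, 56548701 to 56556579), had 1109, 1050 and 1181 normalized counts in SLC with IL-1β. In the LOXL2-labelled SLC libraries it had 1359, 2424 and 1927. The groups did not overlap, and the second replicate was the highest and the first the lowest of the latter. The log2 fold change of 0.78 (SE 0.20, 95% interval 0.31 to 1.24) did not pass (adjusted p = 0.0706). In MLC, BAX had 985, 1058 and 1035 normalized counts with IL-1β and 1229, 1345 and 1506 with the LOXL2 label. The rise was smaller than the SLC estimate but past the threshold (log2 fold change 0.41, SE 0.10, adjusted p = 0.0237), and the groups did not overlap. The annotated span of BAX lies wholly within that of TULP2 and shares 103 bases with the iron-storage gene FTL, and the counting rules for overlaps and strand are not given in the sources used here. TULP2 had 48 to 172 counts in a library. FTL had 23287 to 74151, with log2 fold changes of 0.74 in SLC (adjusted p = 0.0706) and 0.42 in MLC (adjusted p = 0.0309), and its part in the BAX counts was not tested.

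BAK1 (gene 102170562, chromosome 23, 40968116 to 40974446) encodes the other effector, which sits on the mitochondrial membrane before any death signal. Its normalized counts in SLC were 419, 428 and 445 with IL-1β and 447, 619.6 and 574 in the LOXL2-labelled libraries. The groups were separated by about 2 counts at the first replicate. In MLC, BAK1 had 449.8, 518 and 475 against 489, 629.5 and 612, and the groups overlapped. Neither difference passed, with a log2 fold change of 0.35 in SLC (SE 0.14, 95% interval 0.022 to 0.68, adjusted p = 0.101) and 0.26 in MLC (SE 0.12, 95% interval -0.008 to 0.53, adjusted p = 0.138). A long noncoding RNA, LOC106503484, that overlaps BAK1 had 10 to 104 counts.

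Of the BH3-only genes, BAD (gene 102189930, chromosome 29, 42995894 to 43009116) encodes a sensor of growth factor and glucose supply. In SLC, BAD had 723, 671 and 813 normalized counts with IL-1β and 825, 1925 and 1427 in the LOXL2-labelled libraries. The first replicate lay just above the highest IL-1β library and the other two well above it. The log2 fold change was 0.92 (SE 0.28, 95% interval 0.27 to 1.57, adjusted p = 0.0708). In MLC, BAD had 610.3, 672 and 628 against 709, 1074 and 1122 normalized counts. The rise was past the threshold (log2 fold change 0.60, SE 0.15, adjusted p = 0.0241) and the groups did not overlap.

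BID (gene 102176106, chromosome 5, 108058152 to 108075830) links death receptors to the mitochondrion once caspase-8 has cleaved its protein. Its normalized counts in SLC were 827, 871 and 972 with IL-1β and 949.8, 1804 and 1380 in the LOXL2-labelled libraries. The first of the latter fell within the IL-1β range. The log2 fold change of 0.63 (SE 0.22, 95% interval 0.12 to 1.145) did not pass (adjusted p = 0.0803). In MLC, BID had 854, 924 and 875 with IL-1β and 977, 1150 and 1325 with the LOXL2 label. There the groups did not overlap and BID rose (log2 fold change 0.38, SE 0.12, adjusted p = 0.0395).

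BCL2L11, BBC3 and PMAIP1 are switched on mainly by transcription, by FOXO factors and stress kinases in the case of BIM and by p53 in the case of PUMA and NOXA. None passed in either layer. BBC3 (gene 102171367, chromosome 18, 55269568 to 55278588) had 473, 448 and 437 normalized counts in SLC with IL-1β and 548, 725 and 715 in the LOXL2-labelled libraries. These did not overlap (log2 fold change 0.555, SE 0.13, 95% interval 0.24 to 0.87, adjusted p = 0.0706). In MLC, BBC3 overlapped, with 375, 502 and 373 against 465, 497 and 514 (log2 fold change 0.24, SE 0.13, 95% interval -0.046 to 0.52, adjusted p = 0.194).

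BCL2L11 (gene 102171716, chromosome 11, 1048172 to 1119479) had 163.5, 136 and 117 normalized counts in SLC with IL-1β against 133.5, 215 and 172.5 with the LOXL2 label. In MLC it had 126, 159.7 and 136 against 147, 107 and 120.1. The groups overlapped in both layers, and the point estimates had opposite signs (0.33, SE 0.21, adjusted p = 0.255 in SLC, and -0.17, SE 0.17, adjusted p = 0.478 in MLC). The 95% intervals ran from -0.17 to 0.83 and from -0.54 to 0.20. PMAIP1 (gene 102175063, chromosome 24, 58947515 to 58950762) had 125, 110.4 and 121 normalized counts in SLC with IL-1β against 110.5, 81.05 and 109 with the LOXL2 label. In MLC it had 113, 130.5 and 139 against 128, 131 and 127. Both sets overlapped, with log2 fold changes of -0.24 in SLC (95% interval -0.65 to 0.17, adjusted p = 0.311) and 0.014 in MLC (95% interval -0.32 to 0.34, adjusted p = 0.958).

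Counted by class, the SLC test called 0 of 3 pro-survival, 0 of 2 effector and 0 of 5 BH3-only genes. Of all 14103 genes tested in SLC, 0% were called higher and 0% lower, and the smallest adjusted p of any gene was 0.0706. Before adjustment, 8 members had p under 0.05, all but BCL2L11 and PMAIP1, as had 43.3% of all genes. With DESeq2's Wald test 7 members passed, BCL2 and MCL1 lower and BCL2L1, BAX, BAD, BID and BBC3 higher, beside 16% of all genes higher and 14% lower. In an edgeR fit of all 12 libraries 8 members passed, these 7 and BAK1 (22.5% of all genes higher and 18.5% lower). Without the first LOXL2-labelled replicate, 9 members passed, 7 higher and 2 lower, and PMAIP1 alone did not (31% higher and 30.8% lower). Without any other single SLC library no member and no other gene passed. In SLC, 5 members had every library with the LOXL2 label above every IL-1β library (23.7% of all genes) and 2 had them all below (25.3% of all genes).

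In MLC, 1 of 3 pro-survival genes fell, and 1 of 2 effector and 2 of 5 BH3-only genes rose. Of all 13664 genes tested in MLC, 9.81% were called higher and 11.8% lower. By the separation of libraries, 4 members were higher, namely BCL2L1, BAX, BAD and BID (21.2% of all genes), and BCL2 was lower (20.2% of all genes). The 4 calls stood with DESeq2 (11.1% of all genes higher and 13% lower) and fell to 0 in the fit on all 12 libraries, where their adjusted p was 0.178 to 0.212 and 0% of all genes passed. They also depended on single libraries. Without the first MLC LOXL2-labelled replicate, 7 members passed, BCL2 and MCL1 lower and BCL2L1, BAX, BAK1, BAD and BID higher (23.7% of all genes higher and 24.4% lower). Of the members, BCL2 alone passed when IL-1β replicate 2 was left out (adjusted p = 0.0493), with 5.95% of all genes. None did without IL-1β replicate 1 or 3 or LOXL2-labelled replicate 2 or 3 (adjusted p of the 4 genes from 0.0529 to 0.148), where 3.43% of all genes passed without LOXL2-labelled replicate 3 and 0% without each of the others. The plot of fold changes shows both layers with their intervals.

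**Figure D2:**
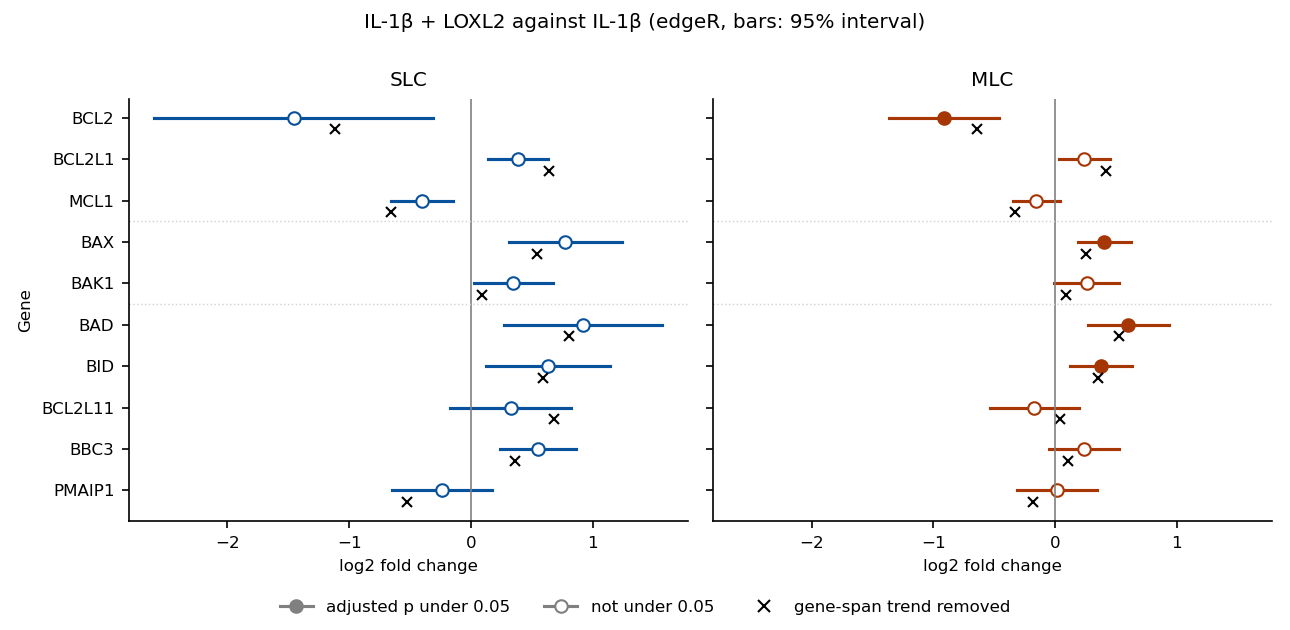
Log2 fold change of each gene, LOXL2-labelled against IL-1β libraries (horizontal axis), in SLC and MLC, from edgeR. Bars are 95% intervals, filled points have an adjusted p under 0.05 and crosses give the estimate with the gene-span trend removed. The filled points are BCL2, BAX, BAD and BID in MLC, and no point is filled in SLC.

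Fold changes in both layers followed the genomic span of genes, introns included. The rank correlation across genes, which are not independent replicates, was -0.49 in each layer. The members run from PMAIP1 with 3248 bases to BCL2 with 193297 bases, between which lie 83.4% of the genes tested in SLC and 84% of those in MLC, and were set against the trend at their own span. BCL2 lay below it, at -1.455 where the trend was -0.40 in SLC and at -0.92 where it was -0.28 in MLC. The share of all genes lying as far from the trend was not counted. MCL1, a short gene of 4793 bases, was negative where genes of its span were positive (-0.40 against 0.36 in SLC, and -0.15 against 0.22 in MLC). BCL2L1, with 53479 bases, was positive where the trend was negative (0.39 against -0.21 in SLC, and 0.24 against -0.15 in MLC). The effector BAK1 lay close to the trend (0.35 against 0.31 in SLC, and 0.26 against 0.195 in MLC), and BAX, BAD and BID lay above it in both layers. So did BBC3 (0.555 against 0.24 in SLC, and 0.24 against 0.15 in MLC). BCL2L11 lay above the trend in SLC (0.33 against -0.27) and close to it in MLC (-0.17 against -0.197). PMAIP1, the shortest member, lay below it (-0.24 against 0.40 in SLC, and 0.014 against 0.24 in MLC).

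With this trend removed from each library, 6 members passed in MLC. BCL2 (log2 fold change -0.64, adjusted p = 0.0332) and MCL1 (-0.33, adjusted p = 0.0394) fell, and BCL2L1 (0.42, adjusted p = 0.0225), BAX (0.26, adjusted p = 0.0487), BAD (0.525, adjusted p = 0.0286) and BID (0.35, adjusted p = 0.0426) rose. Of all genes, 7.79% were then higher and 6.87% lower. Within the pro-survival class the genes went in different directions, with BCL2 and MCL1 lower and BCL2L1 higher. In SLC none passed with the trend removed. The estimate for BCL2 was then -1.11 (adjusted p = 0.0831) and that for MCL1 -0.66 (adjusted p = 0.0734).

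**Figure D3:**
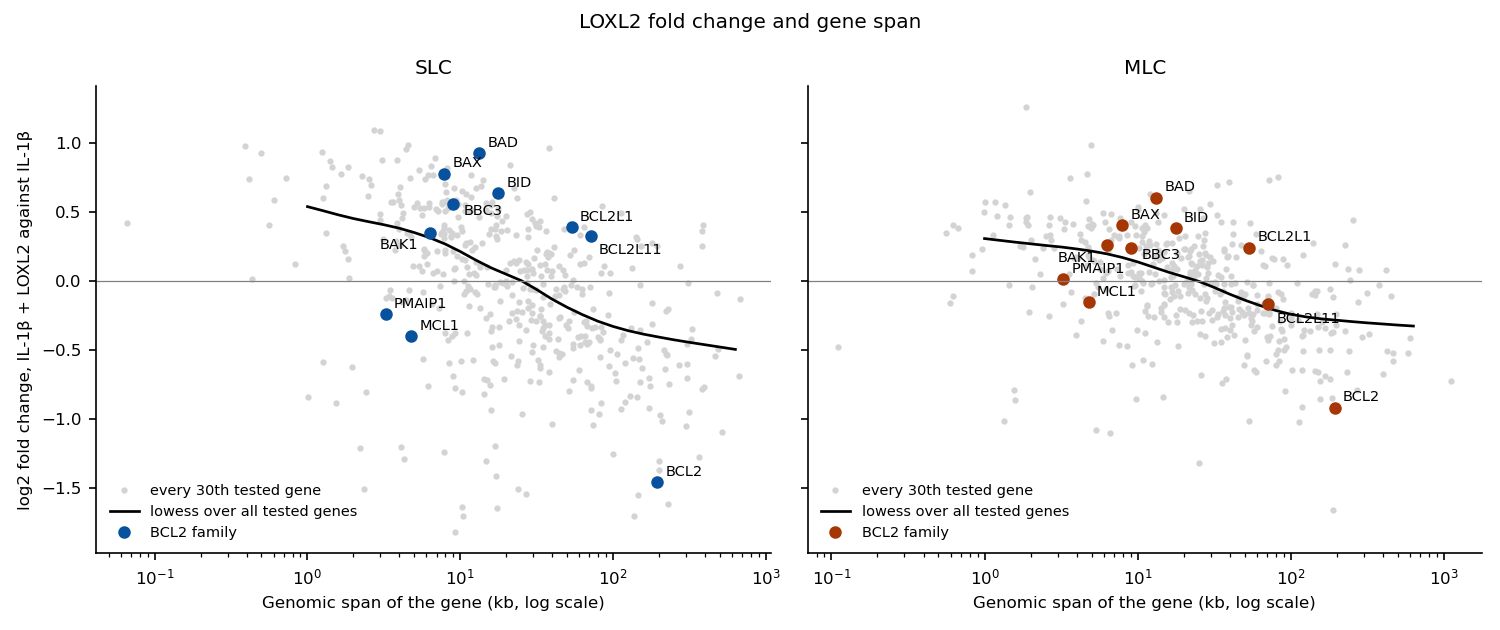
Log2 fold change, LOXL2-labelled against IL-1β libraries (vertical axis), by genomic span in kb on a log scale (horizontal axis), in SLC and MLC. Grey points are every 30th tested gene, the line is the lowess trend over all tested genes and coloured points are the BCL2 family. In both layers BCL2, MCL1 and PMAIP1 lie below the line and the other members above it, BAK1 in both layers and BCL2L11 in MLC only slightly.

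The balance of a pro-survival message to BAX was taken as the ratio of their counts within a library, which does not depend on scaling. Its absolute value means little without transcript lengths, and only its shift between libraries is described, with no test. In SLC the log2 ratio of BCL2 to BAX was -2.28, -1.90 and -2.48 with IL-1β and -3.09, -6.20 and -4.76 in the LOXL2-labelled libraries. In MLC it was -2.40, -2.82 and -2.52 against -3.34, -3.99 and -4.50. All libraries with the LOXL2 label were below all IL-1β libraries in both layers, and the mean went from -2.22 ± 0.30 to -4.68 ± 1.56 (SD, n = 3) in SLC and from -2.58 ± 0.22 to -3.94 ± 0.58 (SD, n = 3) in MLC. This separation had to follow from those of BCL2 and BAX given above, so it is no further support. The ratio also carries the gene-span trend, which was -0.40 at the span of BCL2 and 0.27 at that of BAX in SLC. In MLC the trend was -0.28 and 0.17.

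For MCL1 to BAX the log2 ratio was 2.66, 2.78 and 2.56 in SLC with IL-1β against 2.11, 1.00 and 1.45 with the LOXL2 label. In MLC it was 2.64, 2.75 and 2.64 against 2.37, 2.11 and 1.89, again without overlap. In SLC this had to follow from the separation of both genes, and in MLC the counts of MCL1 itself overlapped while those of BAX did not. The ratio of BCL2L1 to BAX was -0.84, -0.87 and -1.08 against -0.81, -1.77 and -1.26 in SLC, and -0.70, -0.93 and -0.80 against -0.85, -0.98 and -1.09 in MLC. These groups overlapped in both layers, as both BCL2L1 and BAX had every library with the LOXL2 label above every IL-1β library.

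**Figure D4:**
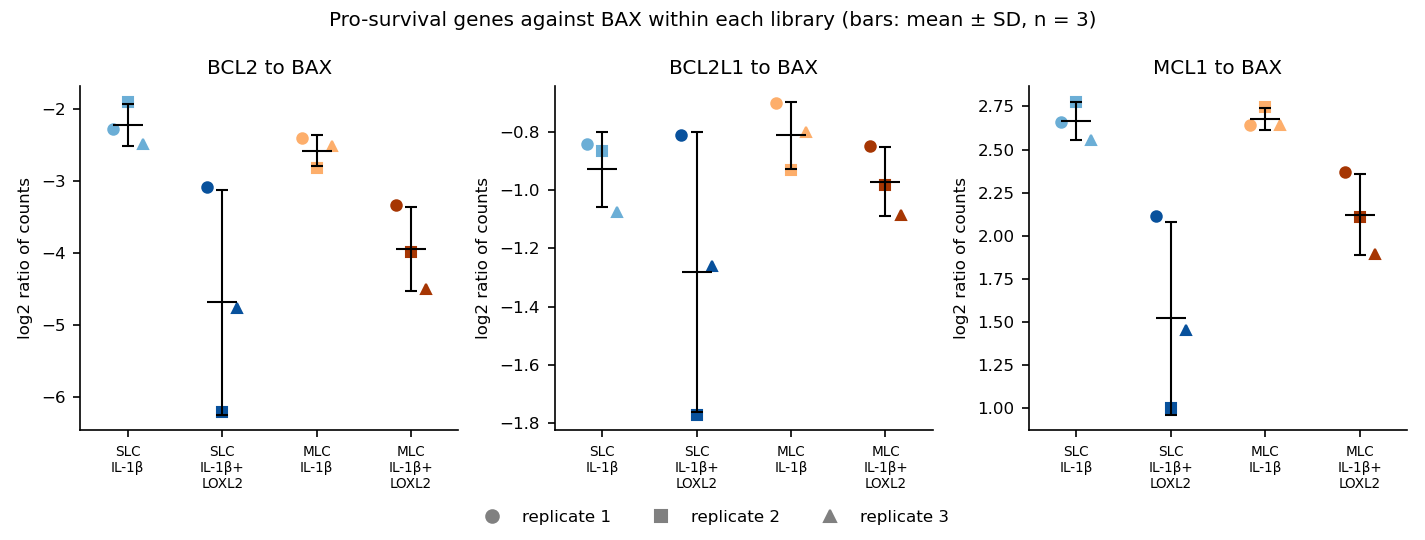
Log2 ratio of the counts of BCL2, BCL2L1 and MCL1 to those of BAX within each library (vertical axis), by group, with marker shapes for replicates 1 to 3 and bars for mean ± SD (n = 3). The BCL2 and MCL1 ratios are lower in every LOXL2-labelled library than in any IL-1β library of the same layer, and the BCL2L1 ratios overlap.

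The layers were compared at the same treatment in a fit of all 12 libraries. They share libraries with the comparisons above, and the layers were deposited as separate tables, so layer and any separate handling cannot be told apart. Under IL-1β no member passed the edgeR test between MLC and SLC (14.2% of all genes were higher in MLC and 11.4% lower). None had an unadjusted p under 0.05, and none passed with DESeq2. The log2 differences, MLC minus SLC, ran from -0.465 for BCL2 (95% interval -1.32 to 0.39) to 0.175 for BAK1 (95% interval -0.12 to 0.47). For BAX the difference was -0.10 (95% interval -0.47 to 0.26) and for BCL2L1 it was 0.014 (95% interval -0.17 to 0.20). By library, BCL2 was lower in all MLC than in all SLC libraries (28.6% of all genes), and BAK1 was higher (26.6% of all genes). Fitted on the 6 IL-1β libraries alone, BCL2 passed as lower in MLC. That call is not set against the share of all genes passing in the same fit, so it shows only dependence on the fit.

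In the LOXL2-labelled libraries, BAX and BBC3 were lower in MLC than in SLC. The log2 difference was -0.49 for BAX (SE 0.17, adjusted p = 0.0433) and -0.435 for BBC3 (SE 0.14, adjusted p = 0.0320), while 14.6% of all genes were higher in MLC and 14.3% lower. The BAX libraries of the layers overlapped, since the first SLC replicate (1359) lay among the MLC ones, and the BBC3 libraries did not. BCL2L1 and BBC3 had every MLC library below every SLC library (16.8% of all genes), and PMAIP1 had every MLC library above (18% of all genes). BAD, at -0.53 (95% interval -1.07 to 0.012), and PMAIP1, at 0.36 (95% interval 0.041 to 0.69), did not pass.

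Both calls between the layers depended on the fit. Fitted on the 6 LOXL2-labelled libraries alone, neither passed (adjusted p = 0.174 for BAX and 0.0902 for BBC3). Without the first SLC LOXL2-labelled replicate, 7 members passed, with BCL2 and PMAIP1 higher in MLC and BAX, BAD, BID, BCL2L11 and BBC3 lower (22.1% of all genes higher and 24.2% lower). Without any one of the other 5 LOXL2-labelled libraries neither BAX (adjusted p from 0.0503 to 0.167) nor BBC3 (adjusted p from 0.0578 to 0.116) passed. Without any one of the IL-1β libraries BBC3 passed and BAX did not (adjusted p of BAX from 0.0579 to 0.0619).

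**Figure D5:**
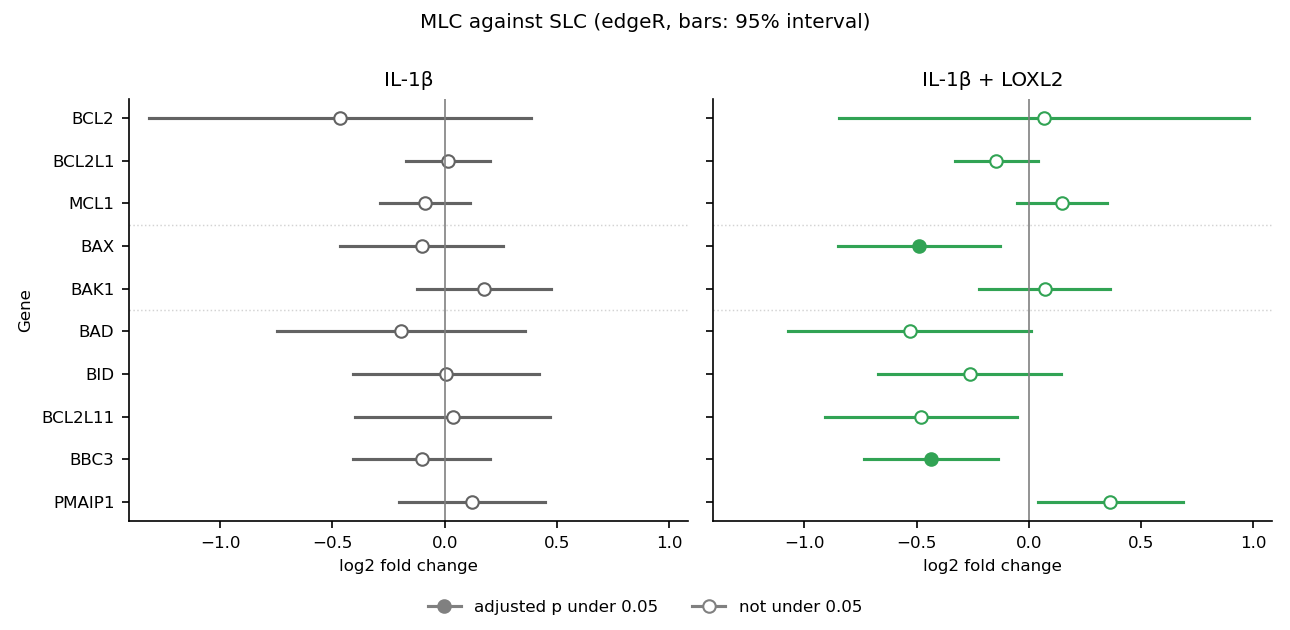
Log2 difference of each gene, MLC against SLC (horizontal axis), in the IL-1β libraries and in the LOXL2-labelled ones, from edgeR on all 12 libraries. Bars are 95% intervals and filled points have an adjusted p under 0.05, which are BAX and BBC3 on the right, both to the left of 0.

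Whether the LOXL2 effect itself differed between the layers was tested as an interaction. No member passed the edgeR test, none had an unadjusted p under 0.05 and none passed with DESeq2. Of all 14519 genes tested, 0% were called higher and 0% lower. The difference of effects, MLC minus SLC, was 0.53 for BCL2 (95% interval -0.72 to 1.78), 0.235 for MCL1 (95% interval -0.051 to 0.52) and -0.39 for BAX (95% interval -0.90 to 0.13). For BCL2L11, whose estimates had opposite signs, it was -0.515 (95% interval -1.12 to 0.093). The calls in MLC and their absence in SLC are therefore not shown to be a difference between the layers.

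Further members of the family were counted from a list of 13 names, of which 6 had enough counts to be tested. These were BOK, an effector-like member, BMF, a BH3-only gene, and BCL2L12, BCL2L13, BNIP3 and BNIP3L, of which BCL2L13 and the BNIP3 pair are known as receptors that mark mitochondria for removal. All 6 estimates were positive in both layers, with a median of 0.33 in SLC and 0.22 in MLC where the median of all genes was 0.013 and 0.008. In MLC, BCL2L12 rose (log2 fold change 0.43, SE 0.13, adjusted p = 0.0338), beside 9.81% of all genes, and the other 5 did not pass. With the gene-span trend removed, BCL2L13 passed there (0.415, adjusted p = 0.0214) and BCL2L12 did not (0.26, adjusted p = 0.0834). The share of all genes called higher was then 7.79%. DESeq2 called both genes higher in MLC, beside 11.1% of all genes. In SLC none passed with edgeR, and 3 had an unadjusted p under 0.05 (43.3% of all genes). BOK, BCL2L12 and BCL2L13 were called higher there with DESeq2, beside 16% of all genes. In the LOXL2-labelled libraries, BNIP3L (-0.53, adjusted p = 0.00945), BOK (-0.48, adjusted p = 0.0162) and BCL2L13 (-0.33, adjusted p = 0.0145) were lower in MLC than in SLC. Under IL-1β alone BNIP3L was lower in MLC (-0.41, adjusted p = 0.0374). Of all genes, 14.3% were lower in MLC with the LOXL2 label and 11.4% under IL-1β.

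Downstream of the mitochondrion, 18 of 20 listed genes of the apoptosome, the caspases and their inhibitors were tested. In MLC, 4 fell and none rose in the LOXL2-labelled libraries, beside 11.8% and 9.81% of all genes. Of the 4, XIAP (log2 fold change -0.56, adjusted p = 0.0238), BIRC3 (-0.36, adjusted p = 0.0439) and BIRC6 (-0.75, adjusted p = 0.0199) encode inhibitors of apoptosis, and APAF1 (-0.49, adjusted p = 0.0482) encodes the scaffold on which caspase-9 is activated. The median of the list was 0.026 in MLC, with 9 estimates positive and 9 negative. With the gene-span trend removed, BIRC6, BIRC3 and XIAP passed as lower, beside 6.87% of all genes, and APAF1 did not. In SLC none of the 18 passed with edgeR, 12 had an unadjusted p under 0.05 (43.3% of all genes), and DESeq2 called 3 higher and 4 lower (16% and 14% of all genes). Between the layers, BIRC5 (survivin, also a mitotic gene) was higher in MLC under IL-1β (1.33, adjusted p = 5.18e-05) and with the LOXL2 label (1.47, adjusted p = 2.03e-05), as was BIRC3 (0.42, adjusted p = 0.0323, and 0.64, adjusted p = 0.00282). CASP6, an executioner caspase, was higher in MLC under IL-1β (0.41, adjusted p = 0.0243). Of all genes, 14.2% were higher in MLC under IL-1β and 14.6% with the LOXL2 label.

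Upstream, 10 of 14 listed death receptor genes were tested. None passed in SLC or MLC for the LOXL2 label (edgeR), with an unadjusted p under 0.05 for 4 and 3 of them (43.3% and 39.3% of all genes). DESeq2 called the adaptor gene TRADD higher (0.50, adjusted p = 0.0276) and CFLAR, an inhibitor of caspase-8, lower (-0.55, adjusted p = 0.00615) in SLC, and none in MLC. DESeq2 called 16% of all genes higher and 14% lower in SLC, and 11.1% and 13% in MLC. FAS was higher in MLC than in SLC under IL-1β (0.53, adjusted p = 5.23e-04) and with the LOXL2 label (0.58, adjusted p = 2.38e-04), and so was RIPK1 (0.30, adjusted p = 0.0102, and 0.39, adjusted p = 0.00171). With the LOXL2 label, the receptor genes TNFRSF1A (-0.44, adjusted p = 0.0377) and TNFRSF25 (-0.91, adjusted p = 0.0161) were lower in MLC. Beside these, 14.2% of all genes were higher in MLC under IL-1β, and 14.6% were higher and 14.3% lower with the LOXL2 label.

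Of 22 listed partners and regulators of the family, 20 were tested. In MLC, 1 rose and 6 fell in the LOXL2-labelled libraries, beside 9.81% and 11.8% of all genes, and the median was -0.13. DYNLL1, a dynein light chain that binds BIM, rose (log2 fold change 0.43, adjusted p = 0.0244). The strongest falls were those of HUWE1, a ubiquitin ligase for MCL1 (-0.69, adjusted p = 0.0190), and FOXO3, a transcription factor that induces BCL2L11 and BBC3 (-0.56, adjusted p = 0.0205). With the gene-span trend removed, HUWE1 and FOXO3 alone passed, both lower, beside 6.87% of all genes. In SLC none passed with edgeR, 11 had an unadjusted p under 0.05 (43.3% of all genes), and DESeq2 called 4 higher and 7 lower (16% and 14% of all genes). Between the layers under IL-1β, 3 were higher in MLC and 3 lower, beside 14.2% and 11.4% of all genes. The higher ones were led by E2F1, a cell cycle transcription factor (2.005, adjusted p = 1.12e-05), and the kinase gene PIM1 (0.59, adjusted p = 0.0112). The lower ones were led by DDIT3 (CHOP, -0.56, adjusted p = 0.0198) and BTRC (-0.49, adjusted p = 0.00476). With the LOXL2 label these same 4 genes passed in the same directions, with DDIT3 at -0.996 (adjusted p = 4.60e-04). Of all genes, 14.6% were then higher in MLC and 14.3% lower. The MLC calls for the LOXL2 label in these lists belong to the fit whose count for all genes fell to 0 without single libraries. The layer calls with the LOXL2 label belong to the fit in which BAX and BBC3 lost their calls without single libraries.

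Levels of some of the marker lists differed between the labels. Summed over 5 proliferation genes, all of them detected, the SLC libraries held 3852 to 5248 normalized counts with IL-1β and 2227 to 3497 with the LOXL2 label, and the MLC libraries 8516 to 11715 and 7916 to 8961. All 5 were higher in MLC than in SLC at either treatment. The 10 chondrocyte markers summed to 24633 to 27056 and 13995 to 24400 in SLC, and to 33062 to 35924 and 27718 to 35185 in MLC. Most of this sum was COL11A1 (21931 to 24340 and 11193 to 21613 in SLC), while ACAN (849 to 944 and 545 to 1013) and COMP (1116 to 1209 and 1106 to 1785) overlapped between the SLC groups. The 7 fibroblast markers, all detected, summed to 1366401 to 1395403 and 1184697 to 1363250 in SLC, and to 1373018 to 1394269 and 1342988 to 1457077 in MLC. The 5 smooth muscle and pericyte markers summed to 27172 to 35408 and 32847 to 38679 in SLC, and to 16328 to 18285 and 21272 to 27424 in MLC. Of these sums, those of proliferation, chondrocyte and fibroblast markers in SLC and of smooth muscle markers in MLC did not overlap between the labels. Most of the latter was ACTA2 (14926 to 16864 and 19783 to 25462), with CNN1 also higher and MYH11 overlapping. Of the fibroblast genes in SLC, COL3A1, PDGFRA and LUM were lower, THY1 was higher, and COL1A1, COL1A2 and DCN overlapped. Of all genes, 23.7% were separated as higher and 25.3% as lower in SLC, and 21.2% and 20.2% in MLC. The 6 osteoblast and osteoclast markers, mostly CTSK, summed to 43237 to 57969 with IL-1β and 55652 to 61943 with the LOXL2 label in SLC. In MLC they summed to 32489 to 45017 and 39071 to 42646, and the labels overlapped in both layers. Endothelial markers summed to 54.4 to 97.5 over all libraries. Leukocyte sums overlapped between the labels in both layers, and PTPRC, which defines leukocytes, was at 0 in both IL-1β groups and below 2 normalized counts in the others. The part of these lists in the BCL2 family values was not tested.

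Genes with the pattern most like a member of each class were taken by the Pearson correlation of log2 CPM over the 12 libraries, among 14519 genes. The libraries fall into 4 groups and share depth scaling and the span trend, so the values describe likeness only. For BCL2 they were PRKX (r = 0.995), LOC106502793 (0.995) and ATP2A2 (0.994), and for BAX they included the ribosomal protein genes RPS15A (0.997) and RPL21 (0.996), which span 5488 and 4230 bases. For BCL2L11 the nearest were KIAA1191 (0.867), CISD2 (0.857) and LOC102190019 (0.852), so no gene followed BCL2L11 as closely as the nearest genes followed BCL2 or BAX.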

How the data were processed

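Paired-end RNA-seq of poly-T selected RNA was analysed in 12 libraries. The authors aligned reads to the goat genome ARS1.2 and deposited raw counts per gene from featureCounts, 1 table for each layer. The submitters' processing notes name HISAT2 beside featureCounts, and settings for strand, overlapping genes and multi-mapping reads are not given in the sources used here. Library totals were 14158607 to 28931652 counts. Coordinates and spans are from the RefSeq annotation of ARS1.2, which matched 28884 of 28910 gene names. No sequences or transcript lengths were used. The labels name an RNeasy kit and the paper's methods another reagent.

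The members and gene lists were chosen with earlier results of these data known, as were the tests and alternatives. All 10 members are named. Of each list, genes past the threshold are named in full where fewer than 5 passed in a comparison, otherwise the 2 largest changes in each direction. For BCL2, BAX and BCL2L11 the 3 genes most like them are named, except 1 that is not reported here.

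Counts were fitted under R 4.3.3 with edgeR 4.0.16, using TMM factors, glmQLFit and glmQLFTest on genes kept by filterByExpr (minimum count 10, minimum total 15). LOXL2 effects were fitted in the 6 libraries of a layer. Layer differences and the interaction were fitted in all 12, on 27127 gene names that occur once. Each SE was obtained from the estimate and its F value (estimate over root F). Normalized counts are from DESeq2 1.42.0, and log2 CPM used a prior count of 2. Alternatives were DESeq2's Wald test and size factors, no filter, at least 10 counts in every library, a replicate block, other sets of libraries, each library left out, and removal of the span trend, for which a lowess curve (f = 0.3) of log2 CPM against log10 span in each library served as offset. The procedure was tested on simulated counts.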

Additional observations from a re-analysis of the deposited data

How the results depend on the processing

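With 3 libraries a group, calls of single members moved with the fit, and directions less so. Over 82 alternative counts of members called, 58 stayed within 1.5 times of the reported count. Over 820 alternative log2 fold changes of members, 721 kept direction and side of the threshold, 41 lost the call, 35 gained it and 23 changed sign. The cause was not tested for any of these. In SLC the count for the LOXL2 label (0) became 7 with DESeq2's Wald test and 8 in the fit on all 12 libraries, and ranged from 0 to 9 with each library left out. In MLC the count (4) became 0 in the fit on all 12 libraries and ranged from 0 to 7 with each library left out. The count between layers under IL-1β (0) became 1 in the fit on 6 libraries. The count between layers with the LOXL2 label (2) became 0 in the fit on 6 libraries and ranged from 0 to 7 with each library left out. For the interaction it was 0 under every alternative run, and with each library left out.

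Sign changes concerned estimates that were not called in the reported fit. For the LOXL2 label in MLC, removing the gene-span trend gave 0.045 for BCL2L11 and -0.179 for PMAIP1, and leaving out libraries gave -0.063 to 0.081 for PMAIP1. Between layers under IL-1β, BCL2L1 was -0.00024 with DESeq2 and -3e-04 with its size factors, and -0.014 to 0.054 with libraries left out. BID was -0.009 with each of these, -0.006 without a filter, -0.051 with the span trend removed and -0.047 to 0.075 with libraries left out, and BCL2L11 was -0.072 to 0.166. With the LOXL2 label, leaving out libraries gave -0.337 to 0.835 for BCL2 and -0.059 to 0.182 for BAK1. The reported estimate for BCL2 was 0.068. It was -0.337 without the second LOXL2-labelled SLC replicate. Without the first it was 0.835 and passed as higher in MLC, beside 22.1% of all genes. In the interaction BAK1 was 0.002 with the span trend removed and -0.233 to 0.007 with libraries left out.

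Whether the replicate numbers pair the samples is not known. Deviations of same-numbered libraries from their group means correlated at 0.03, -0.23 and 0.12 in SLC and at 0.08, 0.11 and -0.05 in MLC. Those of differently numbered libraries correlated at -0.26 to 0.24 in SLC and at -0.16 to 0.1 in MLC. With 3 libraries a group, deviations from a shared mean cannot exclude a pairing. With the replicate number as a block, 0 members were called in SLC, beside 0% of all genes, and 4 in MLC, beside 29.7%. Between layers the counts with a block were 0 under IL-1β and 2 with the LOXL2 label. For these layer counts the share of all genes is not reported here.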
